A study of Homo sapiens with 8 samples.

Results

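Translational efficiency, the number of ribosome footprints per RNA of a gene, was compared between knockdown and control cells in the genes with the deepest Ribo-seq coverage. The 1701 genes described here are 13.2% of the 12873 genes found in both count tables. They were chosen by measured depth: a mean RNA level of at least 10 CPM (counts scaled to a common library size) and at least 50 counts in each of the 4 Ribo-seq libraries. That rule used the same libraries that were then compared, so counts and medians over these genes are given as descriptions.

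All libraries came from SH-SY5Y, a human neuroblastoma line in long use, in 4 groups of 2. The knockdown cells carried a short hairpin RNA against RPS29 (shRPS29) and the control cells a control hairpin (shCONT), each measured by RNA-seq and by Ribo-seq. No other agent or allele is given in the labels, nor is the hairpin sequence, the time after delivery, or whether a line was a clone or a pool. Whether replicates came from separate cultures is also not given, so p-values measure only the spread between these libraries.

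Ribo-seq sequences the short RNA pieces that a ribosome shields from nuclease, so footprints per RNA follow how often a message is being read. RPS29 is part of the small (40S) ribosomal subunit, and loss of such proteins limits the supply of 40S subunits. Messages compete for the subunits that remain, and those of ribosomal proteins and elongation factors start with a run of pyrimidines, the TOP motif, that places them under common control by mTORC1 and LARP1.

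RPS29 itself missed the depth rule. It held 2430 and 2872 RNA counts in the controls against 147 and 117 in the knockdown, and 199 and 129 footprint counts against 28 and 28. Both assays were lower with no overlap between hairpins, by a log2 fold change of -4.40 in RNA (edgeR adjusted p = 6.32e-12) and -2.41 in footprints (edgeR adjusted p = 0.0193). Its ratio of footprints to RNA gave a log2 fold change of 2.09 (SE 0.481), which missed the threshold (edgeR adjusted p = 0.0535).

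RNA-seq libraries held 17539104 to 19156104 counts, of which the deeply covered genes took 37.4 to 39.9%. Ribo-seq libraries held 2899655 and 3235621 counts in shCONT and 2630463 and 4375971 in the knockdown, and the same genes took 70.8, 69.2, 54.2 and 74.8% of them. A median gene of the set had 173, 174, 98 and 181 footprint counts. Knockdown replicate 1 of the Ribo-seq stood apart: across these genes its counts had a Spearman correlation of 0.493 and 0.405 with the controls, against 0.782 and 0.722 for knockdown replicate 2 and 0.895 between the controls. The 2 knockdown libraries correlated at 0.736. The median absolute log2 difference between replicates was 0.336 in control and 0.533 in knockdown footprints, and 0.0547 and 0.111 in RNA. Of 12 noradrenergic neuroblastoma markers, 10 were at 10 CPM or more in RNA, with MYCN at 1.95 to 5.49 CPM and TH, the first enzyme of catecholamine synthesis, near 0. No listed epithelial, blood, endothelial or glial marker had a mean of 10 CPM over the libraries, with the blood marker CD68 at 6.35 and 7.36 CPM in shCONT against 9.78 and 13.9 CPM under the RPS29 hairpin, while the fibroblast collagen gene COL3A1 lay between 210.7 and 297.2 CPM and 2 of 5 fibroblast markers were in the set. The neuroblastoma markers summed to 7965 and 8212 CPM in shCONT and 8271 and 8222 in the knockdown, and the fibroblast markers to 334 and 307 against 314 and 374, and their part in the results was not tested.

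In the knockdown, footprints per RNA were called higher in some genes and lower in others. These calls depended on the libraries and the fit used, as given below. Among genes with no snoRNA, miRNA or tRNA gene inside them, the increases were led by ZSCAN18, UXS1, ADK and EPB41. These had 34.8 to 110.8-fold more footprints per RNA. XXYLT1, which holds a miRNA gene, had the largest increase of all, 128-fold. The decreases were led by PARD3, a cell polarity scaffold, GPS2, a corepressor subunit, and ID2, an inhibitor of basic helix-loop-helix factors. In the interaction test of edgeR, 46 of the 1701 genes (2.70%) were called higher at an adjusted p below 0.05, against 3.01% of all 10648 genes tested. A further 17 (0.999%) were called lower, against 0.873%. Calls in either direction took 3.89% of all genes tested, so the set was called about as often as the genes around it. The median log2 fold change was -0.05, against 0.06 over all genes tested, and the interquartile range ran from -0.64 to 0.56. The full range ran from -4.83 to 6.999. A stricter count filter, which changes the genes used for scaling, moved the median up by 0.21 to 0.17, so signs of medians near 0 are not fixed by these data.

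Ratios printed for single genes divide the footprint CPM of a library by the mean RNA CPM of its hairpin. How often the groups separated was counted more strictly, with each footprint library of a hairpin set against each of its RNA libraries. In 407 genes (23.9%) all knockdown ratios were above all control ratios, where 24.7% of all genes tested did so. In 519 genes (30.5%) all were below, against 21.7% of all genes tested. All 63 called genes were without overlap. Unadjusted p-values under 0.05 were found for 221 genes with a higher and 255 with a lower ratio, and most of these did not survive adjustment.

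The test has 1 dispersion per gene for both assays, and its median SE (0.402) was smaller than that of footprints tested alone (0.557), although the ratio also carries the RNA error. When the assays were fitted separately and their errors combined, 38 of the 46 genes called higher and 4 of the 17 called lower (PARD3, GPS2, ID2 and NUDC) stayed called, and they were also called by DESeq2 and limma-voom. Without knockdown replicate 1 of the Ribo-seq, and without replicate 2, all 63 kept their sign. These genes had no overlap between hairpins, so a change of sign was hardly possible. No gene was called by edgeR without control replicate 2 of the Ribo-seq (smallest adjusted p = 0.0512), where 229 were higher and 220 lower at an unadjusted p under 0.05. None was called without any 1 of the RNA-seq libraries (smallest adjusted p between 0.0528 and 0.215), where 125 to 143 were higher and 88 to 126 lower at an unadjusted p under 0.05.

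RNA and footprint changes of these genes were only weakly related. RNA was called higher in 246 genes (14.5%) and lower in 527 (31.0%), against 14.4 and 16.3% of the 14723 genes tested in RNA-seq (30.7% in either direction). Footprints were called higher in 47 genes (2.76%) and lower in 11 (0.647%), against 7.96 and 0.607% of the 11853 genes tested in Ribo-seq (8.57% in either direction). Genes with higher RNA had a median RNA change of 0.36 on the log2 scale and a median footprint change of -0.24. Genes with lower RNA had medians of -0.38 and -0.36, and genes whose RNA was not called had -0.01 and -0.18. Across the 1701 genes the RNA and footprint log2 fold changes had a Spearman correlation of 0.059 and a Pearson correlation of 0.048. Over the 775 genes with a span of at most 50 kb the values were 0.176 and 0.151. These points share all 8 libraries and differ widely in depth.

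**Figure D1:**
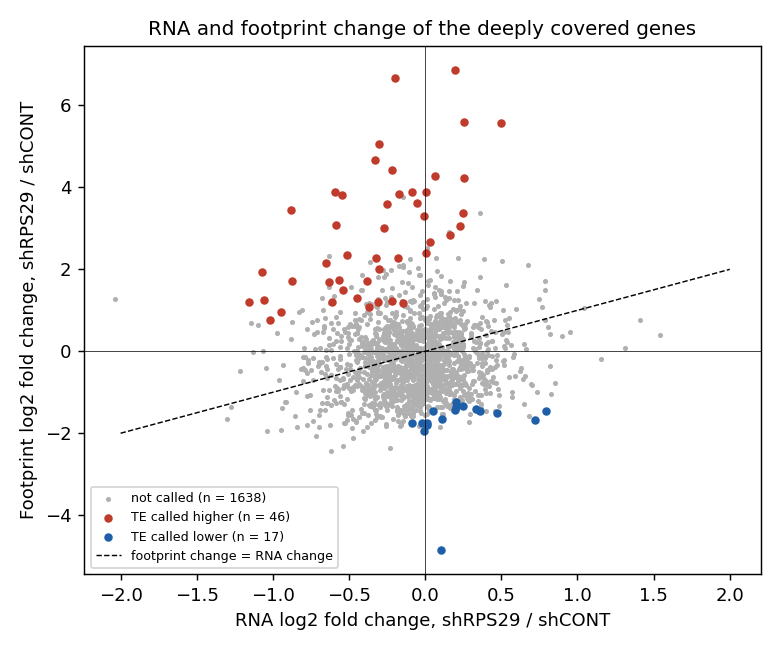
Log2 fold change (shRPS29 over shCONT) of RNA on the horizontal axis and of footprints on the vertical axis for the 1701 deeply covered genes, each point 1 gene. The 46 genes with translational efficiency called higher (red) lie above the dashed line of equal change and the 17 called lower (blue) lie below it.

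The called genes differed in which assay was also called by itself. Translational efficiency change is the footprint change less the RNA change, so its selection favours RNA changes of the opposite sign. Of the 46 called higher, 30 were also called higher in footprints, against 2.76% of the set. RNA was called lower in 25 of them and higher in 3, against 31.0 and 14.5% of the set. Of the 17 called lower, 7 were called higher in RNA and none lower. Footprints were called lower in 2 of them (PARD3 and CCT6A), against 0.647% of the set.

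ZSCAN18, a zinc finger protein with a SCAN domain, had the largest increase among genes with no small RNA gene inside them (chromosome 19, positions 58083842 to 58118426, GRCh38.p14). Its footprint counts were 318 and 191 in shCONT and 33698 and 15267 in the knockdown, while RNA counts were 620 and 653 against 781 and 755. The ratio was 2.53 and 1.49 in shCONT and 352 and 94.2 in the knockdown, so the groups were far apart and the knockdown libraries also differed from each other. The log2 fold change of translational efficiency was 6.79 (SE 0.870, edgeR adjusted p = 0.0289). UXS1, which makes UDP-xylose for proteoglycan synthesis, had 119 and 107 footprint counts in the controls against 6277 and 2756 in the knockdown. ADK, adenosine kinase, had 51 and 90 against 3827 and 1670. In both, control counts were low and knockdown replicate 1 was the highest library, and the log2 fold changes were 5.47 and 5.20. ADK was 1 of the 3 genes whose RNA was also called higher (log2 fold change 0.50).

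EPB41, the membrane skeleton protein 4.1R, had 95 and 119 footprint counts in shCONT and 3040 and 1457 in the knockdown, a log2 fold change in translational efficiency of 5.12. IQSEC1, an exchange factor for the ARF6 GTPase, had 92 and 82 against 2054 and 1102 (4.77). PIMREG, a mitotic regulator that binds the clathrin assembly protein CALM, had 289 and 135 against 3348 and 1923 (4.59). These 3 genes showed the same order of libraries, with knockdown replicate 1 above replicate 2 and both above the controls. DAPK1, a calmodulin-regulated death kinase, had 67 and 50 footprint counts against 706 and 375, while its RNA fell from 888 and 852 counts to 530 and 469 (RNA log2 fold change -0.88, edgeR adjusted p = 8.53e-06). Its translational efficiency changed by 4.46.

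NMT1 attaches myristate to proteins as they leave the ribosome, HSPA4 is an HSP110-type exchange factor for HSP70, and UBE2O is a ubiquitin-conjugating enzyme that also acts on unassembled ribosomal proteins. NMT1 had 240 and 177 footprint counts in shCONT and 3402 and 1507 in the knockdown, a log2 fold change in translational efficiency of 4.13. HSPA4 had 463 and 253 against 5689 and 3271 (4.09), and UBE2O 90 and 94 against 1239 and 606 (3.96). RNA of NMT1 and HSPA4 was not called, and that of UBE2O was called lower by a log2 fold change of -0.25.

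Of the 1701 genes, 406 hold a snoRNA, miRNA or tRNA gene inside their span, whose own reads could be counted with the host, and 13 of these were called higher and 1 lower. Of the 1295 other genes 33 and 16 were, and of the whole set 2.70 and 0.999%. XXYLT1, a xylosyltransferase of Notch modification that holds MIR3137, had the largest change of all, with 237 and 114 footprint counts against 20317 and 9457 and a log2 fold change in translational efficiency of 6.999. MARCHF6, a ubiquitin ligase of the endoplasmic reticulum that holds MIR10397, had 2288 and 1247 against 64007 and 34323 (5.47). LYN, a SRC-family kinase that holds SNORA1B, had 187 and 127 against 2402 and 1285 (4.48). The order of libraries was that of the genes above, and whether reads came from the small RNA genes was not tested. The 406 hosts had a median log2 fold change of 0.27 and the 1295 other genes -0.15, with median spans of 73.7 and 54.9 kb.

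The increases were divided at 8-fold, a limit set for description. In 22 genes translational efficiency was called higher by over 8-fold, with a median of 18.8-fold and a maximum of 128-fold. Together they took 0.420 and 0.206% of the control Ribo-seq libraries and 10.1 and 2.98% of the knockdown libraries. In all 22, footprint CPM was higher in knockdown replicate 1 than in replicate 2, by 2.02 to 3.88 times with a median of 3.18, while the median over all 1701 genes was 0.931 and 44.9% of them were above 1. The corresponding ratio of the control libraries had a median of 1.38 in the 22 genes. Without knockdown replicate 1 the median log2 fold change of the 22 genes was 3.09, and without replicate 2 it was 4.89, against 4.23 with both. Another 4 genes passed 8-fold and were not called: DIP2C (3.41 on the log2 scale), PDE4B (3.14), STOX2 (4.02) and TNS3 (3.07), named after their values were seen.

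**Figure D2:**
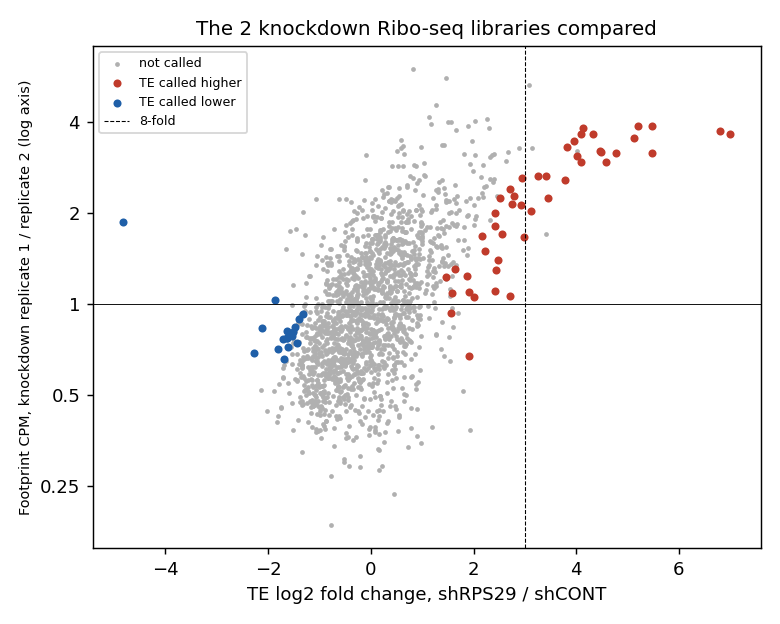
Log2 fold change of translational efficiency (horizontal axis) against the footprint CPM of knockdown replicate 1 divided by that of replicate 2 (vertical axis, log scale) for each of the 1701 genes. All 22 genes called higher by over 8-fold (right of the dashed line, red) lie at ratios of 2.02 to 3.88, whereas the genes called lower (blue) centre on 0.780.

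The other 24 genes called higher changed by 2.75 to 7.91-fold (median 5.37). They were long, with a median span of 323 kb and 20 of them over 100 kb. In 17 of them RNA was called lower, where 31.0% of the whole set were. Their expected background from span is given below with gene length. ARF3, a Golgi GTPase, is an example with a short span, 21.8 kb: footprint counts were 98 and 61 in shCONT and 113 and 182 in the knockdown, while RNA counts were 4331 and 4167 against 2414 and 2232, and the ratio of footprints to RNA had a log2 fold change of 2.02 (edgeR adjusted p = 0.0347). CNOT6, a deadenylase of the CCR4-NOT complex, had 55 and 56 footprint counts against 54 and 136, with RNA at 1954 and 2225 against 1087 and 1086 (log2 fold change in translational efficiency 1.91). In these 2 genes, named after their values were seen, RNA was called lower and footprints were not called.

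PARD3 was the only gene called lower by over 8-fold (chromosome 10, positions 34109561 to 34815296, GRCh38.p14). It had 14724 and 31987 footprint counts in shCONT and 757 and 687 in the knockdown, with RNA at 1033 and 1170 against 1289 and 1203. The ratio was 67.8 and 144 in shCONT and 4.87 and 2.61 in the knockdown, so the controls stood far above the knockdown. The log2 fold change in translational efficiency was -4.83 (SE 0.641, edgeR adjusted p = 0.0289). PARD3 spans 706 kb, and the other 16 genes called lower were all at most 50 kb long.

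GPS2 had 257 and 320 footprint counts in the controls against 52 and 128, while RNA counts were 1500 and 1796 against 3053 and 2684. Footprint and RNA changes thus had opposite signs, and the ratio of 0.791 and 0.965 became 0.146 and 0.212 (log2 fold change -2.28, SE 0.361, edgeR adjusted p = 0.0300). ID2 had 1444 and 2142 footprint counts against 427 and 868, with RNA at 2685 and 2854 against 5687 and 4476 (log2 fold change in translational efficiency -2.12). NUDC, a dynein regulator and HSP90 cochaperone, had 182 and 242 footprint counts against 54 and 89, with RNA at 4072 and 4254 against 6496 and 5707 (-1.86). In these 3 genes the RNA was called higher and the footprints did not pass the footprint test by themselves (edgeR adjusted p = 0.0682 for GPS2, 0.157 for ID2 and 0.0984 for NUDC).

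NME1, a nucleoside diphosphate kinase, had 1326 and 1565 footprint counts in shCONT and 323 and 717 in the knockdown (log2 fold change in translational efficiency -1.71). The readthrough gene NME1-NME2 overlaps it and was also called (-1.52), so the 2 calls may count the same reads. KDELR2, a receptor that returns proteins to the endoplasmic reticulum, had 1037 and 1139 against 177 and 458 (-1.69). DAGLB, a diacylglycerol lipase and its near neighbour on chromosome 7, had 1059 and 1155 against 196 and 463 (-1.61). The footprint counts of KDELR2 and DAGLB were thus close in every library, although RNA counts were 4910 and 5407 in the control libraries for KDELR2 and 455 and 425 for DAGLB, and whether reads are shared was not tested.

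AAMP, a WD-repeat protein, had 376 and 364 footprint counts in the controls against 73 and 161 in the knockdown (log2 fold change in translational efficiency -1.64). LGALS3BP, a secreted glycoprotein, had 830 and 1104 against 180 and 396 (-1.63), and TXNDC5, a disulfide isomerase of the endoplasmic reticulum, 255 and 261 against 62 and 129 (-1.63). The groups did not overlap in any of the 3. The remaining genes called lower were CCT6A, a subunit of the TRiC chaperonin (-1.81), HSPA13, a microsomal HSP70 relative (-1.54), SPCS1, a signal peptidase subunit (-1.47), NPY, a neuropeptide (-1.44), and STT3A and RPN1, subunits of the oligosaccharyltransferase (-1.40 and -1.32). CCT6A holds the snoRNA genes SNORA15 and SNORA22B. Adjusted p-values of all 63 called genes lay between 0.0289 and 0.0490, near the threshold.

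**Figure D3:**
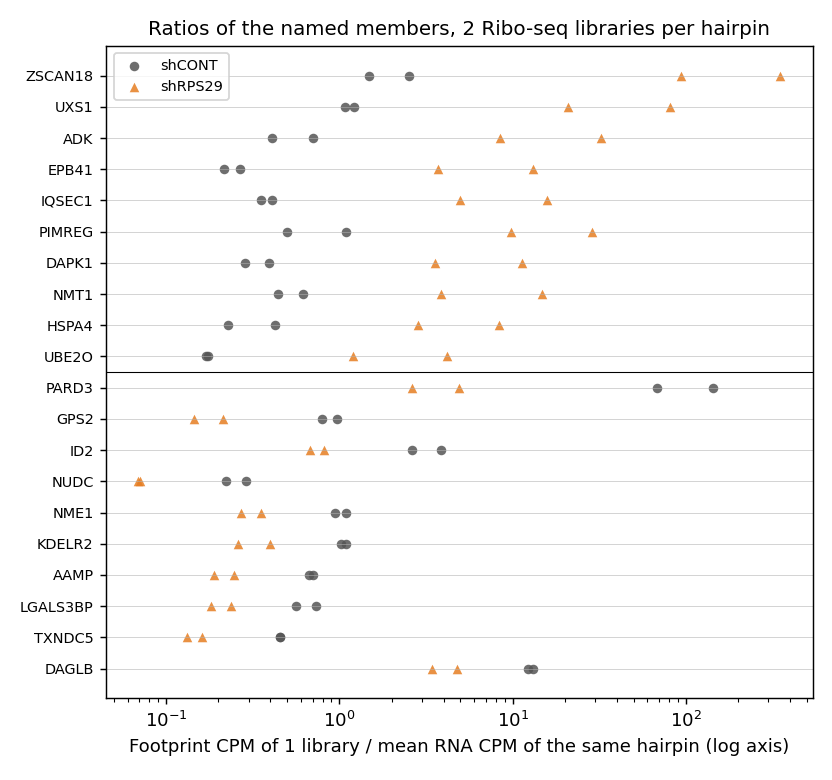
Footprint CPM of each Ribo-seq library divided by the mean RNA CPM of the same hairpin (horizontal axis, log scale) for the 10 genes with the largest called increase (above the line) and the 10 with the largest called decrease (below it) that hold no small RNA gene. Circles are the 2 shCONT and triangles the 2 shRPS29 libraries, and in every gene the hairpins do not overlap.

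The change in translational efficiency was ordered by the length of the gene. In quintiles of the set by RefSeq span, divided at 14.6, 40.8, 89.8 and 184 kb, the median log2 fold changes were -0.72, -0.44, -0.14 (0.08 with the stricter filter), 0.18 and 0.72 from the shortest to the longest. Genes called higher numbered 1, 4, 6, 9 and 26 in the same order, and genes called lower 9, 6, 1, 0 and 1, the last being PARD3. The order was the same without any 1 of the libraries, where the shortest quintile lay between -0.97 and -0.53 and the longest between 0.48 and 0.94. RNA medians spanned much less, from -0.01 in the shortest to -0.13 in the longest, and footprint medians from -0.82 to 0.51. Ranks of span are a property of the genes and not of the samples, so no test was made.

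In 72 genes with a span of at least 50 kb and at most 0.1 RNA CPM, Ribo-seq counts per kb differed between hairpins. The medians over these genes, in raw counts not scaled to library size, were 0.0465 and 0.0361 in shCONT and 0.334 and 0.219 in the knockdown. All genes of at most 0.1 RNA CPM, of any span, took 0.264 and 0.110% of the control libraries and 0.409 and 0.261% of the knockdown libraries, where the hairpins overlap. Scaled to the span of each gene, the rate per kb gave a median expected background of 1.55 and 1.15% of the counts in shCONT and 19.7 and 7.08% in the knockdown, as a rough estimate that can exceed a gene's own count. How much of each change this background makes up was not tested.

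**Figure D4:**
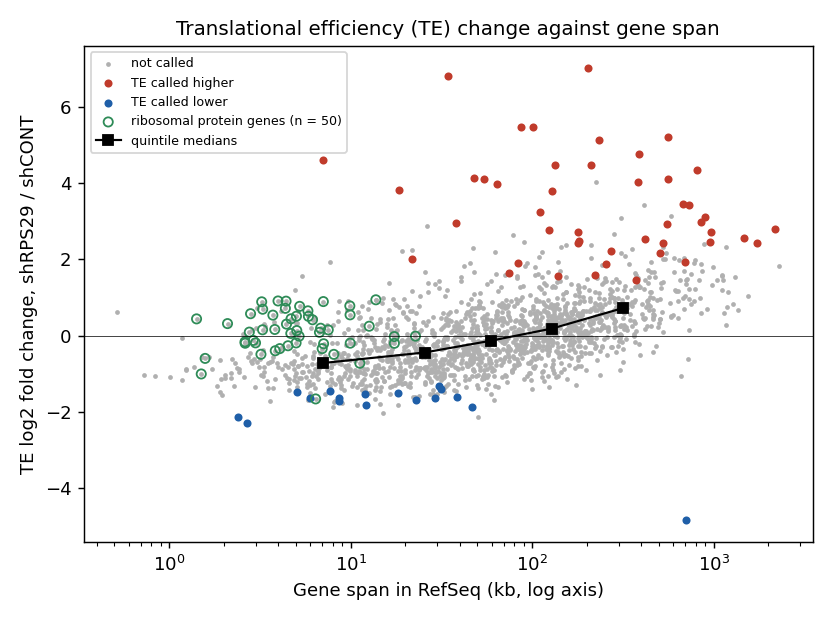
Log2 fold change of translational efficiency (vertical axis) against RefSeq gene span in kb (horizontal axis, log scale), each point 1 gene. Black squares mark the medians of the quintiles by span, from -0.72 to 0.72, red and blue points are called genes, and green circles are the 50 ribosomal protein genes, with a median of 0.14.

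Ribosomal protein genes were measured as 50 of 79 listed, 19 of the small and 31 of the large subunit. Their RNA was lower, at a median of -0.54 on the log2 scale, and 39 of 50 genes called lower, where 31.0% of the whole set were. Footprints had a median of -0.43 with 1 gene called lower, and translational efficiency a median of 0.14 with none called by edgeR. At an unadjusted p under 0.05 none was higher and 2 were lower, DESeq2 called 2 lower and limma-voom 1. The small subunit had a median of 0.15 and the large subunit 0.08, and without any 1 library the medians ranged from 0.00 to 0.47 and from -0.33 to 0.26, so the sign for the large subunit depended on the library left out. For both together the range was -0.21 to 0.35.

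Summed footprints of the 50 ribosomal protein genes were 229238 and 309375 CPM in shCONT and 165323 and 413458 CPM in the knockdown. The knockdown libraries thus lay on either side of the controls. Summed RNA was 56935 and 59467 CPM in shCONT and 46273 and 39237 CPM in the knockdown, with no overlap. These genes are short, with a median span of 4.86 kb, and the other 293 genes of the shortest quintile had a median log2 fold change in translational efficiency of -0.82, with RNA at 0.04 and footprints at -0.87.

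Individual ribosomal protein genes differed from each other, with a log2 fold change in translational efficiency above 0 in 29 of the 50. RPL35A, of the large subunit, had 1333 and 1044 footprint counts in the controls against 133 and 349, and was the 1 called lower in footprints, with a log2 fold change in translational efficiency of -1.66 that missed the threshold (edgeR adjusted p = 0.0569). FAU, which encodes RPS30 fused to a ubiquitin-like protein, had 170 and 156 against 53 and 109 and a log2 fold change in translational efficiency of -1.01 (edgeR adjusted p = 0.0990).

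The first bases of the transcript show which of these messages carry a TOP-like start, here a C followed by at least 4 C or T at an annotated RefSeq start (GRCh38.p14). The first 20 bases, all in the 5′ untranslated region, are printed 5′ to 3′ with the pyrimidine run in capitals. The first 4 genes are TOP messages described here. Their log2 fold changes in translational efficiency were -1.01 (FAU), -1.66 (RPL35A), 1.94 (TPT1) and -0.25 (EEF2). The last 4 are named genes with lower translational efficiency. Their starts have no such run, as in most deeply covered genes with an annotated start.
FAU, chr11:65122115-65122134, minus strand: CTCTTTCTCgactccatctt
RPL35A, chr3:197950190-197950209, plus strand: CTTCTCTTaccgccatcttg
TPT1, chr13:45341164-45341183, minus strand: CTTTTCCgcccgctcccccc
EEF2, chr19:3985444-3985463, minus strand: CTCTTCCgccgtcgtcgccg
GPS2, chr17:7315341-7315360, minus strand: ggagccgctgagaaagcgca
ID2, chr2:8682056-8682075, plus strand: attctgagccgagcccggtg
NUDC, chr1:26921743-26921762, plus strand: gcggaaggcggacgactaga
NME1, chr17:51153559-51153578, plus strand: gcagaagcgttccgtgcgtg

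Such a start was found in 159 of the 1409 deeply covered genes with a promoter entry (11.3%), against 5.14% of 27305 RefSeq genes, and in 32 of the 39 ribosomal protein genes with an entry. The median log2 fold change in translational efficiency was 0.02 with the pyrimidine start and -0.08 with another start. Outside the ribosomal protein genes and at a span of at most 50 kb, it was -0.58 in 60 genes with the pyrimidine start, and in the 554 genes of that span with another start it was -0.55. Of the 159 genes 3 were called higher and none lower by edgeR, and of the 1250 with another start 36 and 11. Over the set 2.70 and 0.999% were called, and the difference between starts was not tested. The match is of letters at an annotated start, which need not be the start used in these cells.

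Of 24 other listed TOP messages, 10 were deeply covered, with a median log2 fold change in translational efficiency of -0.08 (-0.52 to 0.31 without any 1 library, 0.11 with the stricter filter) and RNA called lower in 6, where 31.0% of the set were. TPT1, a growth-related TOP message whose gene holds SNORA31 and SNORA31B, had 28624 and 30613 RNA counts in the controls against 16019 and 12401, and 549 and 690 footprint counts against 392 and 1733. Its log2 fold change in translational efficiency was 1.94 and was not called (edgeR adjusted p = 0.0925). EIF3E, a subunit of initiation factor eIF3, had 60 and 53 footprint counts against 191 and 85 and a value of 2.30 (edgeR adjusted p = 0.0993). EEF2, the translocation factor of elongation, whose gene holds SNORD37, had 1265 and 1261 against 397 and 1081 and a value of -0.25.

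Over 15 initiation factors outside the TOP list the median log2 fold change in translational efficiency was -0.52, with RNA called higher in 6 (14.5% of the set), and over 15 ribosome assembly factors it was -0.63, with RNA called higher in 11 (median 0.31, with 14.5% of the set called higher). Translational efficiency was called in none of either list by edgeR, with 5 lower at an unadjusted p under 0.05 in each and 4 called lower in each by DESeq2. EIF2B4, a subunit of the eIF2 exchange factor, had 249 and 256 footprint counts against 57 and 128 (log2 fold change -1.50, edgeR adjusted p = 0.0519). DDX56, a nucleolar helicase, had 514 and 460 against 78 and 291 (-1.75, edgeR adjusted p = 0.0693), and NOP58, a core box C/D snoRNP protein whose gene holds snoRNA genes, 244 and 211 against 99 and 95 (-1.45). Footprints of these 3 genes were lower in both knockdown libraries without passing the test. MARS1 and AIMP2, a tRNA synthetase and a scaffold of the synthetase complex whose genes hold MIR6758 and SNORA80D, stood at -1.53 and -1.79, over a list of 8 with a median of -0.53. Mitochondrial ribosomal proteins, translated by the same cytosolic ribosomes, had a median of -0.08 over 7 genes (0.18 with the stricter filter).

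**Figure D5:**
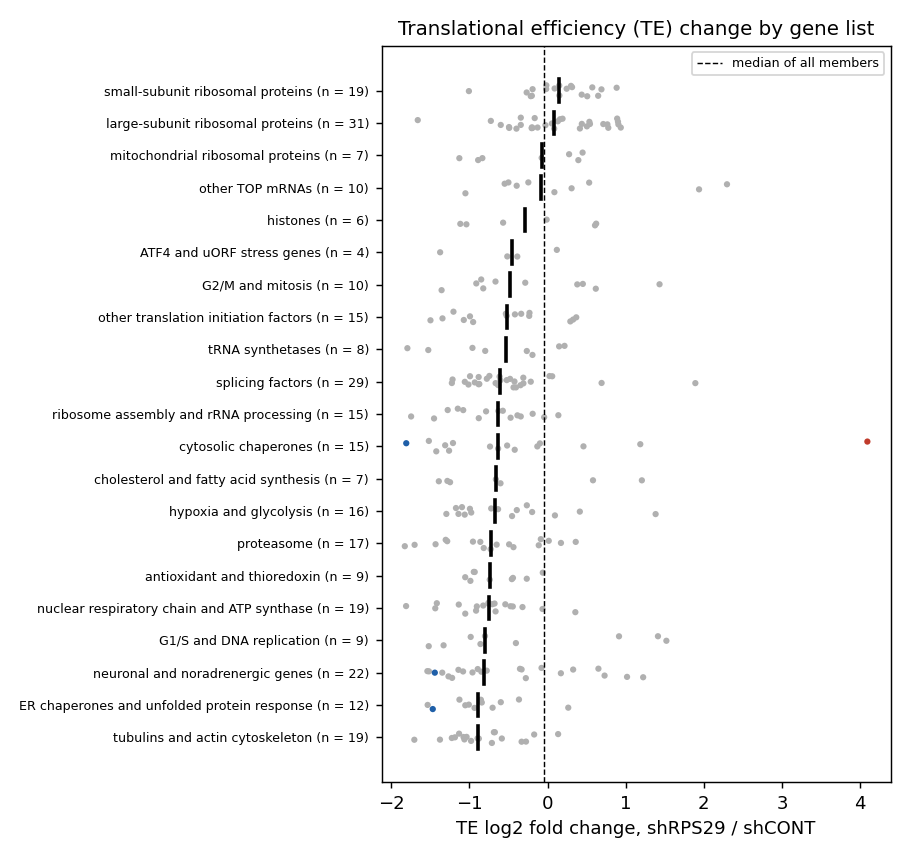
Log2 fold change of translational efficiency (horizontal axis) of the members of 21 gene lists with at least 3 deeply covered genes, each point 1 gene and each black bar the list median, with the median of all 1701 genes dashed. Only HSPA4 (red) and CCT6A, NPY and SPCS1 (blue) are called, and the ribosomal protein lists have the highest medians with all libraries included.

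Of the 21 lists with at least 3 genes in the set, 19 had a median below that of all 1701 genes, and 18 held no called gene. The lists together cover 301 genes, of which edgeR called 1 higher and 3 lower. At an unadjusted p under 0.05, 10 were higher and 78 lower, DESeq2 called 5 and 65, and limma-voom 3 and 25. Over the whole set of 1701 these counts were 221 and 255, 133 and 171, and 74 and 57. The median span of each list lay between 1.85 and 54.2 kb, below the 59.4 kb of the whole set. Some list medians departed from the quintile of that length, in both directions. The neuronal and noradrenergic list (54.2 kb) stood at -0.81, against -0.14 in the third quintile. Histones (1.85 kb) stood at -0.29, against -0.72 in the shortest. The part of length in the list medians was not tested.

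Over 12 genes of endoplasmic reticulum chaperones and the unfolded protein response, the median log2 fold change in translational efficiency was -0.89. In 10 of them all knockdown ratios, over every combination of libraries, lay below all control ratios, as in 30.5% of the set. SPCS1 was the 1 called, with 670 and 865 footprint counts against 197 and 398, and SYVN1, the HRD1 ubiquitin ligase, whose gene holds MIR6751, stood at -1.53 (edgeR adjusted p = 0.0572). Over 15 cytosolic chaperones the median was -0.63, with HSPA4 called higher and CCT6A, at 430 and 451 footprint counts against 68 and 162, called lower. The 17 proteasome genes had a median of -0.73, with RNA called higher in 7, where 14.5% of the set were. PSMB7, a core particle subunit, had 838 and 835 footprint counts against 157 and 434 (-1.70, edgeR adjusted p = 0.0525).

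The 19 genes of tubulins and the actin cytoskeleton had a median log2 fold change in translational efficiency of -0.90, the lowest of the 21 lists by a small margin, and 16 of them had ratios below the controls without overlap, as in 30.5% of the set. TUBA1B, an alpha-tubulin, had 765 and 795 footprint counts against 74 and 220, with RNA at 58705 and 61826 against 45657 and 37351. Both its RNA and its footprints were called lower, and its translational efficiency, at -1.71, was not (edgeR adjusted p = 0.0651). The 22 neuronal and noradrenergic genes had a median of -0.81. Among them NPY had 799 and 749 footprint counts against 184 and 419 and was called, while RET, the GDNF receptor kinase, had 383 and 370 against 82 and 167 and was not (-1.14, edgeR adjusted p = 0.0752).

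Metabolic lists lay in the same range. The 19 nuclear genes of the respiratory chain and ATP synthase had a median log2 fold change in translational efficiency of -0.76, the 16 of hypoxia and glycolysis -0.68, the 9 antioxidant genes -0.74 and the 7 of cholesterol and fatty acid synthesis -0.66. ACACA, which makes malonyl-CoA for fatty acid synthesis and whose gene holds SNORA90, had 103 and 84 footprint counts in the controls against 127 and 188 and a value of 1.21 (edgeR adjusted p = 0.0647). The expected background of ACACA, a gene of 322 kb, came to 84.7% of its counts in the library where it was largest. ENO1, a glycolytic enzyme whose gene holds MIR6728, stood at -1.30, NDUFC2, a complex I subunit, at -1.42, and SOD1, the cytosolic superoxide dismutase, at -1.05, none of them called.

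Both cell cycle lists had negative medians in translational efficiency, and they differed in RNA. All 10 mitotic genes in the set had RNA called lower, where 31.0% of the set did, with a median RNA log2 fold change of -0.43, and their median in translational efficiency was -0.48. BUB1, a spindle checkpoint kinase whose gene holds SNORD132, had 766 and 429 footprint counts against 501 and 1260 and a value of 1.43 (edgeR adjusted p = 0.1003), while HMGB2, a chromatin protein, had 1771 and 1959 against 267 and 790 and a value of -1.36. Over 9 genes of G1/S and DNA replication the median in translational efficiency was -0.80, with UHRF1, which recruits DNMT1 and whose gene holds MIR4747, at -1.52 (edgeR adjusted p = 0.0503). RNA was called lower in 4 of the 9 and higher in 1, where 31.0 and 14.5% of the set were. POLA1, the catalytic subunit of DNA polymerase alpha, had 99 and 72 footprint counts in the controls against 183 and 176 and a value of 1.41 (edgeR adjusted p = 0.102). Its span is 303 kb, and its expected background came to 55.4% of its counts in the library where it was largest. At an unadjusted p under 0.05, 2 of the 9 were higher and 2 lower. Over 6 histone genes the median was -0.29. The 29 splicing factors had a median of -0.61, with 17 below the controls without overlap, as in 30.5% of the set.

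The depth rule itself shaped the set. At its edge ANK1 and CAPRIN2, with 50 counts in their lowest library, were inside, at 1.86 and -0.04, and ATP5F1C and BBS9, with 49, were outside, at -1.41 and 2.12 on the log2 scale of translational efficiency. Had the mean of the Ribo-seq counts been asked to reach 50, 2308 more genes would have entered. Of these, 1421 fell short only in a knockdown library and 555 only in a control library. Their median log2 fold change was -0.28. Of the 2308, 99 were called higher and 34 lower, where 3.01 and 0.873% of all genes tested were. Within the set, genes whose lowest count was 50 to 99 (1074 genes) had a median of -0.08, those with 100 to 199 (365 genes) -0.16 and those with 200 or more (262 genes) 0.19.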

How the data were processed

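RNA-seq and Ribo-seq were measured in 8 libraries of SH-SY5Y, 2 per hairpin and assay. The authors deposited raw counts by gene symbol, whole numbers in 1 table for RNA-seq and 1 for Ribo-seq. Per the labels' protocols, RNA-seq used a stranded total RNA kit, and Ribo-seq used cycloheximide lysates, RNase I, monosomes from a size column and rRNA depletion. The submitters' processing notes name Trim Galore, Salmon, Bowtie2, STAR, featureCounts and hg38. Not given in the sources used here are their versions and roles, the annotation, and whether footprints were counted over coding exons or whole genes, so reads of introns and of small RNA genes may be in the Ribo-seq counts.

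Translational efficiency was tested as the assay-by-hairpin interaction in 1 model over all 8 libraries (edgeR 4.0.16 in R 4.3.3, quasi-likelihood F test, TMM within each assay, genes passing filterByExpr in both), and RNA and footprints each within their own table. P-values were adjusted by Benjamini-Hochberg over every gene tested and called below 0.05. SE is the absolute log2 fold change over the square root of F. CPM uses the TMM-scaled library sizes of the model, except that the depth rule uses total counts. The scripts were tested on simulated data. Symbols were matched to RefSeq (GRCh38.p14) for 1700 of 1701 genes. Expected background is the median raw counts per kb over 72 genes of at least 50 kb and at most 0.1 RNA CPM, in each library, times span.

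The genes, the 23 lists and the tests were chosen with earlier results of these data known. Named genes are RPS29, the 10 largest called changes in each direction without a small RNA gene inside, the 3 largest changes with one, the 2 smallest p-values of each list with at least 3 members, and the 2 nearest genes on each side of the depth threshold. Some list genes are not reported here, and other genes were named after their values were seen. Alternatives were other scaling, filters, DESeq2 1.42.0, limma-voom (limma 3.58.1), separate fits, a replicate block, other membership rules and each library left out. Limits on background and on span were added after seeing the data.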

Additional observations from a re-analysis of the deposited data

How the results depend on the processing

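All 63 called genes kept their sign under the stricter filter, scaling on the set alone, the replicate block and without each library. This says little about them, as they were chosen by the test and had no overlap between hairpins. The count called higher (46 of 1701, 2.70%) was 133 with DESeq2, 74 with limma-voom and 103 with the stricter count filter. Some rules also changed the number of genes. With membership by mean counts 145 of 4009 genes were called higher, and with at least 200 counts per library 4 of 262. The limits on background and span were added after seeing the data. At no more than 10% background 16 of 622 genes were called higher, and at a span of at most 50 kb 6 of 775. A gene's own knockdown counts help to decide the background limit. Over all genes tested 3.01% were called higher. The count called lower (17, 0.999%) was 28 with RLE size factors, which took the share of higher calls from 73.0 to 62.2%. It was 171 with DESeq2 (43.8% higher), 57 with limma-voom (56.5%), 5 with separate fits (91.2%), 8 with no filter and 43 with the stricter filter. With membership by mean counts 51 of 4009 genes were called lower, and with at least 200 counts 4 of 262. Over all genes tested 0.873% were called lower. The median log2 fold change (-0.05) was 0.0016 with scaling on the set alone, -0.17 with separate fits, -0.13 with no filter, 0.17 with the stricter filter, -0.19 with membership by mean counts, 0.19 with at least 200 counts, -0.15 without hosts of small RNA genes, -0.48 at low background and -0.53 at short span. Footprints called lower (11) were 72 with DESeq2. Leaving out 1 library at a time gave 0 to 306 called higher and 0 to 425 called lower, with medians of -0.155 to -0.0423. The counts without Ribo-seq control replicate 1 were 108 and 59, without knockdown replicate 1 124 and 125, and without knockdown replicate 2 306 and 425, each with the lone library assumed to vary like the others. RNA calls ranged from 122 to 346 higher and 297 to 664 lower, and footprint calls from 4 to 60 higher and 1 to 13 lower, with a footprint median of -0.44 to -0.23. The causes were not tested. Low counts limit the set at its edge, where 50 counts carry a wide counting error.

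The labels share only replicate numbers. Same-numbered libraries did not deviate together in both assays (r = -0.028 between hairpins in RNA-seq and 0.075 in Ribo-seq across all genes tested, and -0.273 and 0.132 across the 1701 genes), so the numbers were not taken as pairs. With the replicate block, edgeR called 4 genes higher and 0 lower in translational efficiency (228 and 291 at an unadjusted p under 0.05), and 89 higher and 128 lower in footprints.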
